A study of Mus musculus with 2 samples.

Results

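The cytochrome P450 enzymes of families 1, 2 and 3 and their electron donor were compared in liver between 2 genotypes, as a set of 40 genes: 39 Cyp1, Cyp2 and Cyp3 genes and Por. The genes were chosen by name, as the P450s of these families known for drug metabolism in mouse liver, and not by their values here. Earlier results of these data were known when the set was chosen. CREBH is a liver-enriched transcription factor, encoded by Creb3l3 in the mouse, and CREBH-Tg mice overexpress its active human form, from a cDNA, mainly in the liver. They were set against wild type (WT) mice. Strain background (C57B6J) and the HFHS diet, given for 12 weeks, were common to both genotypes. For each genotype a pool of liver RNA was hybridised to 1 one-colour Agilent array. The age, the sex and the number of the mice in a pool are not given in the sources used here, nor is the promoter of the transgene. With 1 array per genotype no difference was tested, and all are described by size.

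P450s are haem enzymes of the endoplasmic reticulum that insert oxygen into drugs, steroids, fatty acids and other lipophilic compounds, with electrons that reach them from NADPH through the reductase Por. In liver many of them are induced by foreign compounds through receptors: AHR acts on Cyp1 genes, CAR (Nr1i3) is best known for Cyp2b genes and PXR (Nr1i2) for Cyp3a genes. Mouse has many closely related copies, which lie side by side in clusters on the chromosomes, and several copies differ in level between male and female liver.

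Of the 40 genes, 37 had a probe that could be named and 36 were well above background on both arrays, against 13881 of 20660 named genes in all. Cyp2a5, Cyp2c40 and Cyp3a41a were not measured here. Values are log2 signals relative to the 75th percentile of the same array, and ratios are CREBH-Tg over WT. The only error at hand was the scatter between spots of the same probe, whose 95% range was ±0.40, ±0.17 and ±0.095 in the dimmest, middle and brightest of 3 equal classes of genes. Of the 36 genes, the dimmest class held 7, the middle 3 and the brightest 26. Spot noise does not include the spread between animals, pools, labelling reactions and hybridisations. A log2 ratio past it is called higher or lower past spot noise, which says nothing about that spread.

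The signals showed the P450s of a liver on both arrays, with small differences for most genes and the Cyp2b subfamily apart. All 3 Cyp2b genes were lower in CREBH-Tg liver by at least 2-fold, Cyp2b10 being 2.25-fold lower. Cyp3a44 was the 1 gene at least 2-fold higher. Like Cyp2b9 and Cyp2b13 it was in the dimmest class, where 56 of 4627 genes were higher and 82 lower by that much. Its log2 ratio was 0.42 under another background correction. Cyp2c67 and Cyp2c68 were 1.28-fold and 1.35-fold higher, and Cyp2a4 was 1.46-fold lower. At 2-fold, 1 of the 36 genes was higher and 3 were lower, beside 0.663% higher and 0.67% lower among all 13881 genes. Under median scaling or quantile normalization it was 1 higher and 1 lower, and of the 2-fold calls over all genes 59.9% were higher under median scaling, against 49.7% in the main processing. At 1.5-fold the counts were 1 higher and 4 lower, beside 2.31% and 2.23% of all genes. In bulk liver RNA, fewer cells of a type and less RNA per cell cannot be told apart.

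**Figure D1:**
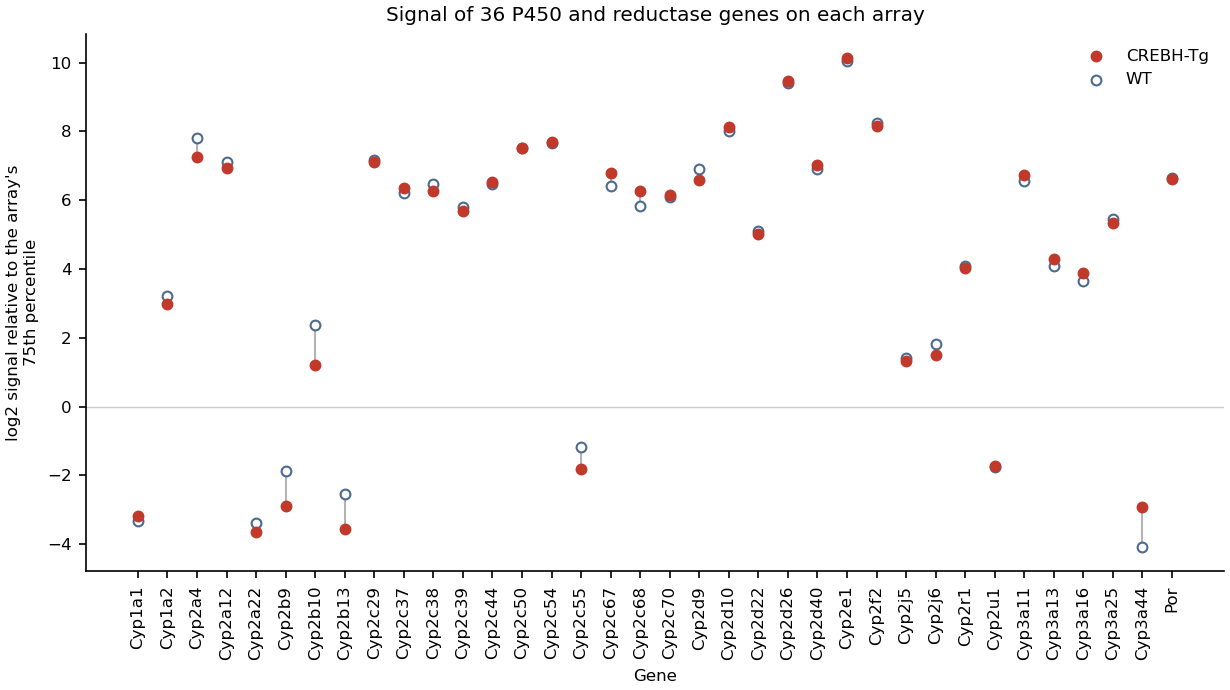
Log2 signal of each of the 36 genes relative to the 75th percentile of its array (y axis), with CREBH-Tg as filled and WT as open points, 1 array each. The points of most genes lie close together, and the joining lines are longest for the Cyp2b genes and Cyp3a44. Probes differ in brightness, so heights of different genes are not to be compared.

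The promoters of these genes are shown first, because members of the Cyp2b and Cyp3a subfamilies are close copies. Each sequence is taken from RefSeq on the GRCm38.p6 build and runs 5′ to 3′ along the gene, from 250 bases before the annotated start to 50 after it. Motifs searched on both strands were TGACG and CCACG (parts of a cyclic AMP response element and of an endoplasmic reticulum stress element), GCGTG (the core of the AHR element), AGGTCA and AGTTCA (nuclear receptor half-sites), TTCNNNGAA (a STAT5 site) and TATAAA. Capitals mark these letters on either strand. The Cyp2b genes are Cyp2b10 at chr7:25897408-25897707, Cyp2b13 at chr7:26061245-26061544 and Cyp2b9 at chr7:26173159-26173458, all on the plus strand:
Cyp2b10: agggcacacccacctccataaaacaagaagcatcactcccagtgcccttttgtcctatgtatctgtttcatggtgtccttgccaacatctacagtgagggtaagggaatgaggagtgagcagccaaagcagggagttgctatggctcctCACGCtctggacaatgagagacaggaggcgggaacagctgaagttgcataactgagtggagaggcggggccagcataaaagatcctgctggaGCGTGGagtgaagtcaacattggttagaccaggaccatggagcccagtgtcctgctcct
Cyp2b13: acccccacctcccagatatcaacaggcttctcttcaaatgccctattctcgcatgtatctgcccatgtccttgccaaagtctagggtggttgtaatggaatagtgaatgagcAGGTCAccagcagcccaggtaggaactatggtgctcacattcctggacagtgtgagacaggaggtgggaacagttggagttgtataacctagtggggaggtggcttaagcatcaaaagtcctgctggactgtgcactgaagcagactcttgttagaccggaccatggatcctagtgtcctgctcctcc
Cyp2b9: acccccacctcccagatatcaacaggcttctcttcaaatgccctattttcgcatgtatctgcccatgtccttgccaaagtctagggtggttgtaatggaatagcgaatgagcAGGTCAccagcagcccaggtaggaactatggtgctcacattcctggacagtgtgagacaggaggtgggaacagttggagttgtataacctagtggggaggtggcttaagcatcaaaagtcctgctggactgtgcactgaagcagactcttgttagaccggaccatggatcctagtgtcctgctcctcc
Cyp2b9 and Cyp2b13 differed at 2 of 300 letters, an identity of 99.3%, and each was 72.9% identical to Cyp2b10 over the aligned bases. Both carry AGGTCA at position -138, counted from the start. Cyp2b10 has GCGTG at position -9, where it overlaps a CCACG on the other strand, and again on the other strand at position -101. The enhancer through which CAR is known to act on Cyp2b10 lies farther upstream than this window.

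Cyp3a16 and Cyp3a44 lie on chromosome 5, on the minus strand, with promoters at chr5:145469674-145469973 and chr5:145805825-145806124. They are shown because they are the pair of measured Cyp3a genes with the most similar promoters and because their ratios were far apart:
Cyp3a16: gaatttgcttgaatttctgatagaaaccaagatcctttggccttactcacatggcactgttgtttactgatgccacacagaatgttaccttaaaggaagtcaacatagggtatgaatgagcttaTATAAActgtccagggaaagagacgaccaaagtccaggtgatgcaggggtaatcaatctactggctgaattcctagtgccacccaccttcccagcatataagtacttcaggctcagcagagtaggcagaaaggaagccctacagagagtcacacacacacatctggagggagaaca
Cyp3a44: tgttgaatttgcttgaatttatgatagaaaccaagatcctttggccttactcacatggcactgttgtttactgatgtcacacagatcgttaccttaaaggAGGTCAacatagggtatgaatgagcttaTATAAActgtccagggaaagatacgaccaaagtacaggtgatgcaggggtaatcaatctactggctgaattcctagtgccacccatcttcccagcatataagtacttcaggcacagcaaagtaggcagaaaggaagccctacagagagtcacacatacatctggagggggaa
Their identity was 93.4%. Both hold TATAAA, and Cyp3a44 has AGGTCA at position -150, where Cyp3a16 has no match. The table held promoters of 36 of the 40 genes, not the same 36 as those measured: Cyp1b1, Cyp2a5, Cyp2c40 and Cyp3a41a are in it, and Cyp2c44, Cyp2c54, Cyp2d22 and Cyp2u1 are not. Among these promoters AGGTCA was found in 13 (36.1%), against 16.3% of 32851 promoters. In Cyp2a4, Cyp2a5 and Cyp2d40 it lies after the start, at positions 31, 30 and 33. TATAAA was found in 22 (61.1%), against 13.6%. The other letters were found in 1 to 6 of the 36 promoters, except TTCNNNGAA, which was found in 0, against 8.3% of all. TGACG was found in Cyp2j5 alone, against 20.8% of all promoters, CCACG in 5, against 32.8%, GCGTG in 6, against 32.4%, and AGTTCA in 4, against 14%. Close copies, such as Cyp2b9 and Cyp2b13 or Cyp2a4 and Cyp2a5 (97.7% identical), are counted separately, so the 36 promoters are not independent. A match is a description of letters and not a site.

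The Cyp1 genes encode enzymes of polycyclic aromatic compounds and caffeine and are the classic targets of AHR. Cyp1a2, a main P450 of liver, had log2 signals of 2.98 in CREBH-Tg and 3.21 in WT liver, and at 1.17-fold lower its difference was past spot noise. Cyp1a1 was dim, at -3.18 in CREBH-Tg and -3.34 in WT, a ratio of 0.16 within spot noise. Cyp1b1, a P450 mainly of extrahepatic tissues, passed the background criterion in CREBH-Tg but not in WT. Its processed intensity was 23.6 in CREBH-Tg and 12.9 in WT, where it was not well above background. Set against the lowest WT signal that met this criterion, it was at least 1.34-fold higher, an approximate bound that rests on 1 dim probe.

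Cyp2a and Cyp2b enzymes hydroxylate steroids, coumarin and nicotine-like compounds, and Cyp2b10 is the standard marker of CAR activation by phenobarbital. The 3 measured Cyp2a genes all had log2 ratios below 0, and 2 of them were past spot noise, beside 44% and 13.3% of all genes. Cyp2a4, a steroid hydroxylase of female-biased expression, had log2 signals of 7.26 in CREBH-Tg and 7.81 in WT liver. A second Cyp2a4 probe gave 5.83 in CREBH-Tg and 6.48 in WT, so the probes gave log2 ratios of -0.54 and -0.65. Cyp2a4 and Cyp2a5 promoters are 97.7% identical, and a probe for one may also bind transcripts of the other, which was not tested. Cyp2a12 had 6.94 in CREBH-Tg and 7.12 in WT, 1.13-fold lower. Cyp2a22 was dim, with -3.65 in CREBH-Tg and -3.39 in WT, within spot noise, and its ratio changed sign under another background correction.

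In the Cyp2b subfamily all 3 genes were lower past spot noise, beside 13.3% of all genes. Cyp2b10 had a processed intensity of 712 in CREBH-Tg and 1725 in WT liver, or log2 signals of 1.21 in CREBH-Tg and 2.37 in WT. Cyp2b9, at 41.2 in CREBH-Tg and 91.3 in WT, was 2.06-fold lower. Cyp2b13, at 26.1 in CREBH-Tg and 57.1 in WT, was 2.03-fold lower. Cyp2b10 was in the middle class of signal and was at least 2-fold lower under each of 10 alternative processing settings too, with log2 ratios between -1.23 and -1.08. Cyp2b9 and Cyp2b13, which are female-biased genes, were in the dimmest class. Their log2 ratios, -1.04 and -1.02, were -0.41 and -0.37 under normexp background correction, which also starts from the median spot signal and adds an offset, and -0.95 and -0.93 under median scaling. Each of the 3 genes was measured by 1 probe, and the near-identical Cyp2b9 and Cyp2b13 cannot be taken as independent measurements.

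**Figure D2:**
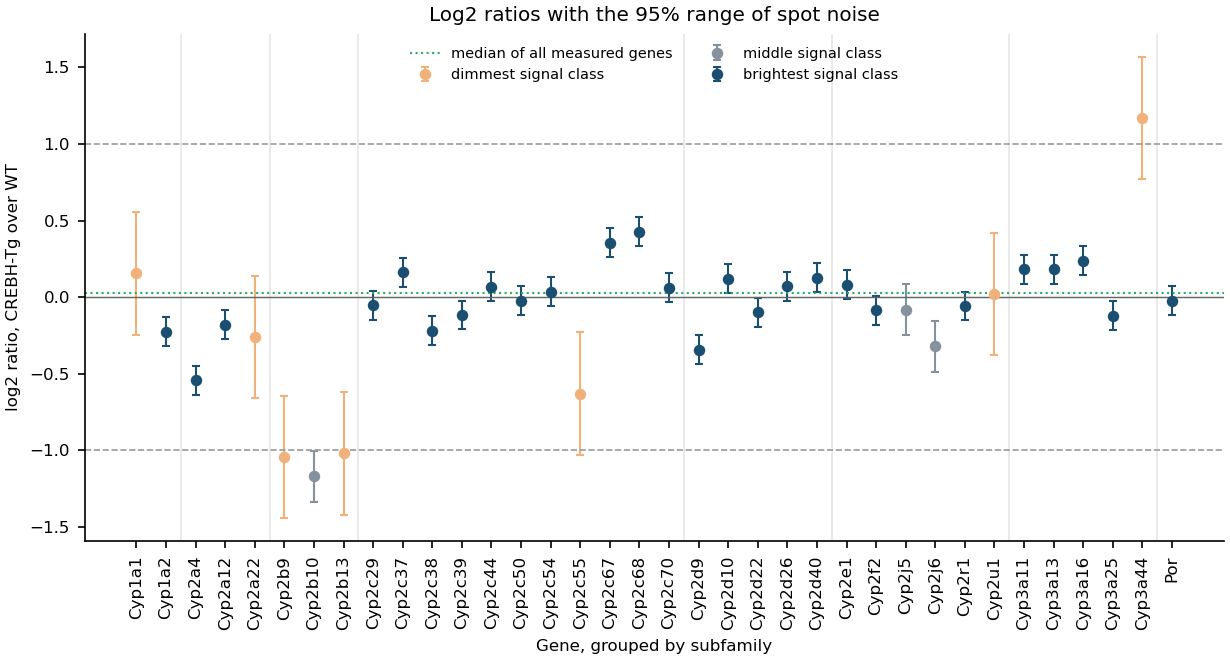
Log2 ratio of CREBH-Tg over WT (y axis) for the 36 genes, grouped by subfamily along the x axis. Bars are the 95% range of spot noise in each gene's signal class, dashed lines mark 2-fold and the dotted line the median of all 13881 genes, 0.026. The Cyp2b genes lie below the lower dashed line, Cyp3a44 lies above the upper one, and most others lie within 0.5 of 0.

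Cyp2c enzymes metabolise many drugs and make epoxides of arachidonic acid. Of the 11 measured Cyp2c genes, 3 were higher and 3 lower past spot noise, and their median log2 ratio was 0.037, which ran from -0.068 to 0.13 over the other scalings and normexp. Over those settings 2 to 6 were higher and 2 to 5 lower. In the brightest class, which held 10 of the 11, 35.8% of all genes were higher and 15.5% lower in the main processing. Cyp2c68 had log2 signals of 6.26 in CREBH-Tg and 5.83 in WT. Its neighbour Cyp2c67 had 6.78 in CREBH-Tg and 6.42 in WT, a ratio of 0.36, and a second Cyp2c67 probe gave 0.40. These genes, the highest Cyp2c ratios, lay next to each other in gene order, and Cyp2c37, the next gene measured, was at 0.16. Cyp2c37 had 6.36 in CREBH-Tg and 6.20 in WT, and its second probe gave -0.023.

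Among the lower ones, Cyp2c55, which makes hydroxylated fatty acids and is prominent in colon, had -1.81 in CREBH-Tg and -1.18 in WT liver. It was 1.55-fold lower and dim, and its ratio was -0.34 under normexp. Cyp2c38 had 6.26 in CREBH-Tg and 6.48 in WT, a ratio of -0.22. Its second, dim probe gave 0.26, so its direction is uncertain. Cyp2c39, a retinoic acid hydroxylase, had 5.68 in CREBH-Tg and 5.80 in WT.

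The other Cyp2c genes were within spot noise, a range for single spots that is too wide for Cyp2c29, a mean over 10 spots. Cyp2c29, an abundant pericentral P450, was the only gene of the set on repeated spots. Over 10 spots its processed intensity had a lowest value, median and highest value of 39735, 42810 and 44662 in CREBH-Tg and 45059, 47398 and 50437 in WT. These raw ranges did not overlap, but the arrays differed in their 75th percentiles, 309 in CREBH-Tg and 333 in WT. After scaling the log2 ratio was -0.054 ± 0.030 (SD over 10 spots of 1 array pair), and 9 of the 10 spots lay below 0. Cyp2c44, an arachidonic acid epoxygenase, had 6.54 in CREBH-Tg and 6.47 in WT. Cyp2c50 had 7.51 in CREBH-Tg and 7.53 in WT, and Cyp2c54 had 7.71 in CREBH-Tg and 7.67 in WT. Cyp2c70, which makes muricholic acids from other bile acids in rodents, had 6.16 in CREBH-Tg and 6.09 in WT.

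The Cyp2d subfamily, whose human counterpart handles many antidepressants and opioids, went both ways: 2 of 5 genes were higher and 2 lower past spot noise. Over the other scalings and normexp the counts ran from 0 to 3 higher and from 1 to 2 lower. In the brightest class, which held all 5, 35.8% of all genes were higher and 15.5% lower in the main processing. Cyp2d9, a male-biased steroid hydroxylase, had log2 signals of 6.58 in CREBH-Tg and 6.92 in WT, 1.27-fold lower. The higher ones were Cyp2d10, with 8.12 in CREBH-Tg and 7.998 in WT, and Cyp2d40, with 7.03 in CREBH-Tg and 6.90 in WT. Under quantile normalization and loess both were within spot noise. Cyp2d22 had 5.01 in CREBH-Tg and 5.11 in WT, a ratio of -0.099. Cyp2d26 had 9.47 in CREBH-Tg and 9.40 in WT, within spot noise.

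The remaining Cyp2 genes differed little. Cyp2e1, which oxidises ethanol, acetone and paracetamol, had 10.13 in CREBH-Tg and 10.05 in WT, a ratio of 0.080 with a second probe at 0.073. Cyp2f2, a periportal naphthalene epoxidase, had 8.15 in CREBH-Tg and 8.24 in WT. Both differences were within spot noise. Cyp2j6 was the exception, with 1.51 in CREBH-Tg and 1.82 in WT, 1.25-fold lower, and a second probe at -0.45. Its relative Cyp2j5, an epoxygenase of arachidonic acid, had 1.32 in CREBH-Tg and 1.40 in WT. Cyp2r1, a vitamin D hydroxylase, had 4.03 in CREBH-Tg and 4.09 in WT, and Cyp2u1, a fatty acid hydroxylase, had -1.74 in CREBH-Tg and -1.76 in WT. These 3 genes were within spot noise.

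Cyp3a enzymes form the subfamily that, in human liver, handles the largest share of prescribed drugs, and PXR is its main inducer. Here 4 of 5 genes were higher and 1 lower past spot noise, with a median log2 ratio of 0.18 (0.12 to 0.27 over the other scalings and normexp). In the brightest class, which held 4 of the 5, 35.8% of all genes were higher and 15.5% lower. Cyp3a11, the main PXR target of mouse liver, had log2 signals of 6.74 in CREBH-Tg and 6.56 in WT, and its probes gave 0.18 and 0.25. Cyp3a16 had 3.89 in CREBH-Tg and 3.65 in WT, 1.18-fold higher. Cyp3a13 had 4.28 in CREBH-Tg and 4.10 in WT, but its second probe gave -0.055. Cyp3a25 had 5.32 in CREBH-Tg and 5.44 in WT, 1.09-fold lower.

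Cyp3a44, a female-biased gene, had a processed intensity of 41.1 in CREBH-Tg and 19.7 in WT liver, 2.25-fold higher. Its log2 signal in WT, -4.08, lay just above -4.13, the lowest that counted as well above background in WT. Its log2 ratio was 1.17, and 0.42 under normexp. Por, the reductase on which all of these P450s depend, differed by less than spot noise, at 6.63 in CREBH-Tg and 6.65 in WT.

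Counted together, 9 of the 36 genes were higher and 13 lower past spot noise and 14 were within it, beside 20.8% higher and 13.3% lower among all genes. Cyp2c29 is counted among the 14 by the range for single spots. The share past spot noise grows with brightness, so the brightest class is the closer comparison. There 8 of 26 genes were higher and 8 lower, beside 35.8% higher and 15.5% lower among all 4627 genes of that class. The median log2 ratio of the 36 genes was -0.038, beside 0.026 over all genes, and 20 lay below 0, where 44% of all genes did. Scaling to the median of each array put these medians at 0.052 for the 36 genes and 0.12 for all genes, with 14 of the 36 below 0. In 10 genes more than 1 probe was measured, and in 7 of them all probes lay on the same side of 0.

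Genes of one subfamily lie together, and ratios were set in gene order. On chromosome 7, 8 of 9 measured genes of the set lay below 0, beside 44% of all genes, with a median of -0.26. From Cyp2b10 to Cyp2f2, a stretch picked after the values were seen, 8 named genes were measured and all were P450s. All 8 lay below 0, and 6 were lower past spot noise, beside 44% and 13.3% of all genes. The 8 include the 3 Cyp2b genes, of which Cyp2b9 and Cyp2b13 are not independent measurements. The stretch includes Cyp2g1, an olfactory P450 outside the set, which was dim and 2.15-fold lower. Cyp2f2 lay at 0.0034 under median scaling and Cyp2a22 at 0.074 under normexp, so that the run of 8 is not kept under those settings. Beyond its ends Cyp2s1, Cyp2t4 and Cyp2r1 also lay below 0, at -0.015, -0.18 and -0.057, each within spot noise. By side of 0, then, the run does not end at Cyp2b10 and Cyp2f2. Cyp2e1 lay at 0.080. On chromosomes 19 and 15 the Cyp2c and Cyp2d rows held genes on both sides of 0.

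**Figure D3:**
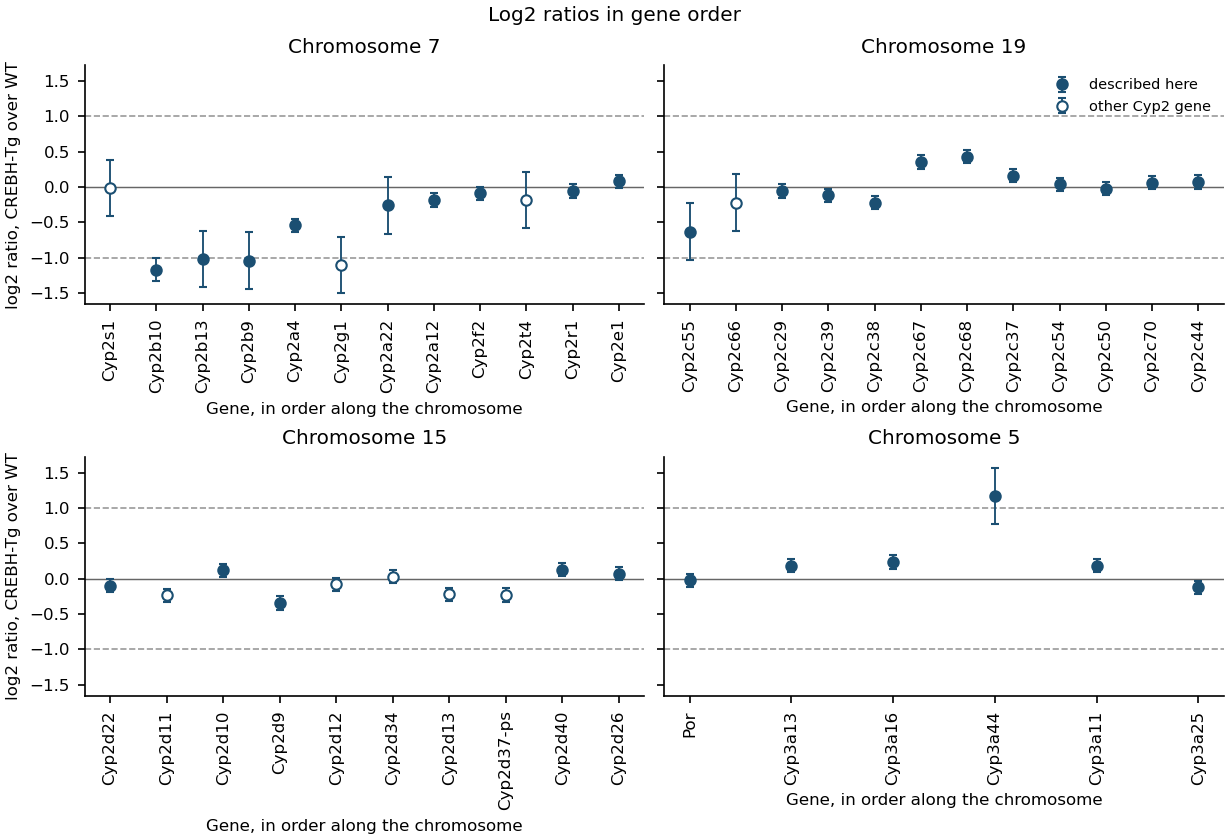
Log2 ratio of CREBH-Tg over WT (y axis) for measured Cyp2 genes and genes of the set, in their order along 4 chromosomes. The x axis is not to scale, and bars are the 95% range of spot noise. Filled points are genes of the set, Por included, and open points other Cyp2 genes, among them the pseudogene Cyp2d37-ps. Cyp3a genes outside the set are not drawn. On chromosome 7 all ratios except that of Cyp2e1 lie below 0, and on chromosome 19 Cyp2c67 and Cyp2c68 stand above their neighbours.

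Several Cyp2 and Cyp3 copies have a known sex bias in mouse liver. Of 6 measured female-biased genes, 4 were lower (Cyp2b9, Cyp2b10, Cyp2b13 and Cyp2a4) and 2 higher (Cyp3a44 and Cyp3a16) past spot noise, with a median log2 ratio of -0.78, beside 13.3% lower and 20.8% higher among all genes. The median ran from -0.84 to -0.39 over the other scalings and normexp. Cyp2d9, the 1 gene of the set listed as male-biased, was lower as well. P450s outside the set were not grouped by sex bias. By zone of the liver lobule, 1 of 5 pericentral genes was higher (Cyp3a11), 1 lower (Cyp1a2) and 3 within spot noise, and the periportal Cyp2f2 was within it. Cyp2c29 is among the 3 by the range for single spots. The 5 pericentral genes were in the brightest class, where 35.8% of all genes were higher and 15.5% lower.

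Receptors and cofactors that act on P450 genes differed by less than 1.5-fold. Of 27 measured, 6 were higher and 6 lower past spot noise, with a median log2 ratio of -0.0080, beside 20.8% higher and 13.3% lower among all genes. Over the other scalings and normexp these counts ran from 2 to 10 higher and from 5 to 11 lower. The brightest class held 18 of the 27, and 35.8% of all its genes were higher and 15.5% lower. CAR (Nr1i3) had log2 signals of 4.18 in CREBH-Tg and 4.52 in WT, 1.27-fold lower, and its second probe gave -0.32. PXR (Nr1i2) had 3.68 in CREBH-Tg and 3.74 in WT, within spot noise, and lay at 0.033 under median scaling. AHR had 3.17 in CREBH-Tg and 3.42 in WT, 1.19-fold lower. The coactivator Ppargc1a was farthest from 0, at 1.42 in CREBH-Tg and 1.84 in WT, with probes at -0.42 and -0.44. Foxa3, a liver forkhead factor, was 1.18-fold higher. Hnf4a, which sustains many liver P450s, had a ratio of 0.099, just past spot noise, and Ppara one of 0.061, within it.

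Other genes that CAR or PXR are known to induce went both ways. Of 27 listed, 24 were measured, 5 higher and 10 lower past spot noise, with a median of -0.029, beside 20.8% higher and 13.3% lower among all genes. Over the other scalings and normexp, 3 to 9 were higher and 8 to 12 lower, and the median ran from -0.095 to 0.060. The brightest class held 16 of the 24, and 35.8% of all its genes were higher and 15.5% lower. The carboxylesterase Ces2b had log2 signals of 2.43 in CREBH-Tg and 3.70 in WT, 2.41-fold lower. Gadd45b, a stress gene induced through CAR, had 0.53 in CREBH-Tg and -0.27 in WT, 1.74-fold higher. The transporter Slco1a4 was 1.54-fold higher and the retinal dehydrogenase Aldh1a1 1.46-fold lower. Of 9 measured AHR-responsive genes other than P450s, 5 were lower and 0 higher past spot noise, with a median of -0.22, beside 13.3% lower and 20.8% higher among all genes. Over the other scalings and normexp 4 to 6 were lower and 0 to 2 higher, and the median ran from -0.29 to -0.10. The brightest class held 5 of these 9 genes. Ugt1a6a was farthest, at -0.68 and dim. Tiparp was at -0.31 and Selenbp1 at -0.24. A second Tiparp probe gave -0.057.

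Partners of P450s in the endoplasmic reticulum were close to equal. All 9 genes were in the brightest class, and 2 were higher and 3 lower past spot noise, beside 35.8% and 15.5% of all genes there, and over the other scalings and normexp 1 to 2 were higher and 1 to 7 lower. The flavin monooxygenase Fmo5 was 1.16-fold lower, with 3 probes between -0.31 and -0.21. Pgrmc2, a haem-binding membrane protein, was 1.13-fold higher, and the reductase Cyb5r3 and cytochrome Cyb5b were both 1.12-fold lower. Of 12 genes of haem synthesis and breakdown, 9 of them in the brightest class, 5 were higher and 2 lower, beside 35.8% and 15.5% of all genes in that class, and 2 to 6 higher and 1 to 3 lower over those settings. Ferrochelatase (Fech), which inserts iron into haem, was 1.18-fold higher, the haem oxygenase Hmox1 1.15-fold lower, Blvrb 1.12-fold higher and Urod 1.11-fold higher. Alas1, the rate-limiting enzyme of haem synthesis, was at 0.011.

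Of the 36 genes, 20 never lay on the other side of 0 under 10 alternatives, or under those that measured them. The side of 0 changed under at least 1 alternative for 2 of 7 genes in the dimmest class, 1 of 3 in the middle and 13 of 26 in the brightest. Among the genes farthest from 0, sizes moved most under normexp and in dim genes.

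**Figure D4:**
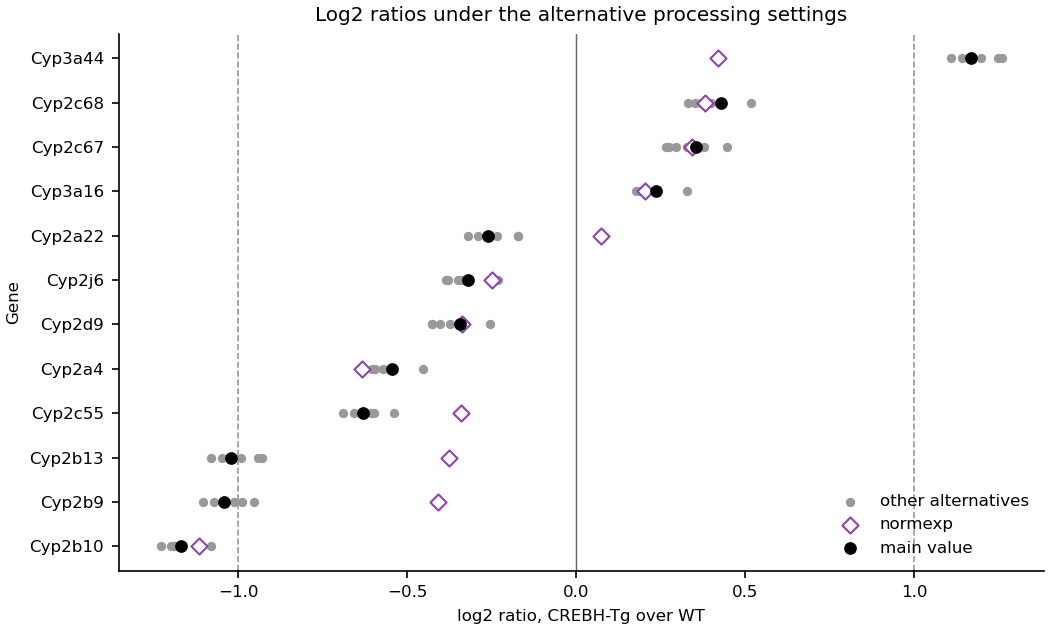
Log2 ratio of CREBH-Tg over WT (x axis) of the 12 genes of the set farthest from 0, under the main processing (black), normexp (open diamonds) and the other alternatives (grey), with 2-fold as dashed lines. Cyp2b10 stays beyond 2-fold throughout, whereas Cyp2b9, Cyp2b13 and Cyp3a44 lie within 0.5 of 0 under normexp.

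As checks of the samples, 58.3% of spots were well above background in CREBH-Tg and 55.4% in WT, and 0 spots were saturated on either array. Mouse Creb3l3 had a log2 ratio of -0.0053, but the transgene is human, so this says nothing about the labels. All 8 hepatocyte markers were measured, with a median of -0.011 and summed scaled levels of 3894 in CREBH-Tg and 3795 in WT. Past spot noise 2 of them were higher and 3 lower. Of 5 adipocyte markers, 5 were well above background in CREBH-Tg and 3 in WT, and the 3 had summed scaled levels of 3.71 in CREBH-Tg and 2.499 in WT. Adipoq, in the dimmest class, was at a log2 ratio of 2.20, and 0.997 under normexp. Lymphocyte markers had a median of 0.21 over 6 genes, 3 of them higher and 0 lower past spot noise. Their sums, 128 in CREBH-Tg and 103 in WT, rest mostly on 1 bright Cd4 probe, at a log2 ratio of 0.34, while a dim Cd4 probe gave 0.049. Macrophage markers had a median of -0.091 over 5 genes and sums of 98.7 in CREBH-Tg and 112 in WT. All 5 lay below 0, and 2 were lower and 0 higher past spot noise. Marco was farthest from 0, at a log2 ratio of -0.96 in both the main processing and normexp. Stellate cell and fibroblast markers had a median of 0.20 over 7 genes, 3 of them higher and 0 lower past spot noise, and sums of 76.4 in CREBH-Tg and 73.9 in WT. Cholangiocyte markers, nearly all dim, had a median of -0.17 over 5 genes, 2 of them lower and 0 higher past spot noise. Their sums were 1.73 in CREBH-Tg and 2.19 in WT. Endothelial markers had a median of 0.045 over 6 genes, 1 of them higher and 1 lower past spot noise, and sums of 115 in CREBH-Tg and 105 in WT. Among all genes 20.8% were higher and 13.3% lower past spot noise. In the brightest class, which held all 8 hepatocyte and all 5 macrophage markers, these shares were 35.8% and 15.5%. Markers of lung, kidney or gut epithelium had a median of -0.014 over 4 genes and sums of 159 in CREBH-Tg and 128 in WT, of which Fabp2, a gene that liver also expresses, was at 0.32. Their part in the P450 values was not tested.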

How the data were processed

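Total liver RNA was extracted with Trizol and labelled with Cy3, per the labels' protocols. Per the file headers, Agilent Feature Extraction 10.10.1.1 gave the values and probe positions are on mouse build mm9. The headers also show that background was subtracted from the deposited processed signal, a linear intensity, and a spatial trend removed, with no scaling of one array to the other. Raw median intensities of spot and local background were deposited too. The value table of the authors holds intensity as well, equal to the processed signal times 2.68 for CREBH-Tg and 2.59 for WT.

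From these, log2 of the processed signal minus the array's 75th percentile was computed. Control spots were dropped, as were 300 outlier spots, and repeated spots were averaged. A probe counted as measured with more than 50% of its spots flagged well above background, and a gene took its brightest probe measured on both arrays. Probes were named through RefSeq accessions in a GRCm38.p6 gene table, used for names and gene order: 27233 of 55677 probes for 20660 genes. Cyp2c44 stands there as Cyp2c23. Spot noise is 1.96 times the SD of the log2 ratio between single spots, from probes with 5 or more spots (92, 97 and 87 probes from the dimmest to the brightest class). Groups follow the genotype labels, no test was run, and the 2 arrays limit the precision of all values. Every gene of the set is named. Of each other list, Nr1i2, Nr1i3, Ahr, Hnf4a, Ppara and up to 4 genes farthest from 0 are named, other names were chosen after their values were seen, and 1 gene that this rule names is not reported here. The set and the lists were chosen with earlier results of these data known. The gene summary was tested on simulated data.

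Alternatives were other scalings (median, percentile over detected probes, loess with a span of 0.3, quantile), the authors' value table, normexp with an offset of 50, the mean over probes or the probe nearest 0, no filter or a filter at 4 times the lowest signal well above background, and thresholds of 1.5-fold and 3-fold. Normexp used the median spot signal, since the files hold no mean spot signal. Promoters were aligned globally with Biopython 1.88. Other tools were Python 3.11.15, numpy 2.4.6, pandas 2.3.3, matplotlib 3.10.9, R 4.3.3 and limma 3.58.1.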

Additional observations from a re-analysis of the deposited data

How the results depend on the processing

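The count of P450 genes at least 2-fold higher, 1 in the main processing, was 0 under normexp, under the stricter filter on dim probes and at a threshold of 3-fold. The count at least 2-fold lower, 3, was 1 under median scaling, quantile normalization, normexp and the stricter filter, and 0 at 3-fold, where Cyp2b10 was the 1 gene left in the first 4 cases. The median log2 ratio of the set, -0.038, was 0.052 under median scaling, which shifts all genes alike, and between -0.11 and -0.019 under the other alternatives. Among all genes 49.7% of 2-fold calls were higher, and 59.9% under median scaling, 71.2% under normexp and 64.3% under the stricter filter. The calls over all genes, 92 higher and 93 lower, were 42 and 17 under normexp, 45 and 25 under the stricter filter and 605 and 782 with no filter. The stricter filter tests fewer genes. Normexp differs from the main processing in its input signal, background model and offset at once, and which of these moved the counts was not tested. Scaling moved the median of all genes by at most 0.090. Leaving out close copies by protein identity was not run. No paired analysis was possible because each genotype has 1 array.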

Other observations

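In P450 families outside Cyp1, Cyp2 and Cyp3, 2 genes were at least 2-fold lower and 0 at least 2-fold higher. Among all genes 0.67% were lower and 0.663% higher by that much. Of 39 genes of these families on the arrays 28 were measured on both, with a median log2 ratio of 0.022. Past spot noise 9 were higher and 6 lower, beside 20.8% and 13.3% of all genes. The brightest class held 17 of the 28, and 35.8% of all its genes were higher and 15.5% lower. Over the other scalings and normexp 9 to 14 were higher and 5 to 8 lower. Within the Cyp4a subfamily of fatty acid omega-hydroxylases the genes went opposite ways. Cyp4a12a had log2 signals of 2.91 in CREBH-Tg and 4.51 in WT liver, 3.03-fold lower, and Cyp4a12b had 3.18 in CREBH-Tg and 4.70 in WT, 2.87-fold lower. The PPAR alpha targets Cyp4a10, Cyp4a14, Cyp4a31 and Cyp4a32 were 1.55-fold, 1.40-fold, 1.57-fold and 1.45-fold higher. These close copies may share probes, which was not tested.

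Cyp39a1, an oxysterol hydroxylase of bile acid synthesis, had 3.62 in CREBH-Tg and 2.71 in WT, 1.87-fold higher, while Cyp7a1, the rate-limiting enzyme of that pathway, was at a log2 ratio of 0.082, within spot noise. Cyp7b1, an oxysterol hydroxylase of the alternative pathway, was 1.16-fold lower. Cyp8b1, which directs synthesis to cholic acid, was 1.13-fold higher. The retinoic acid hydroxylases Cyp26b1 and Cyp26a1 were 1.55-fold and 1.31-fold higher, and Cyp51, a sterol demethylase, was 1.31-fold lower. Cyp21a1, a steroid hydroxylase, was 1.60-fold lower. Apart from the 4 farthest from 0, these genes were chosen after their values were seen.

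Of 14 measured Cyp1, Cyp2 and Cyp3 genes outside the set, 1 was higher and 3 lower past spot noise, beside 20.8% and 13.3% of all genes. Their median log2 ratio was -0.086. Over the other scalings and normexp it ran from -0.15 to 0.0035, with 0 to 3 higher and 3 to 5 lower. The lower ones were Cyp2g1, at -1.10, and the Cyp2d genes Cyp2d11 (-0.23) and Cyp2d13 (-0.22). The higher one was Cyp3a41b, at 0.21. The brightest class held 8 of the 14, and 35.8% of all its genes were higher and 15.5% lower.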
